A study of Mus musculus with 48 samples.

Results

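Dorsal skin of C57BL/6 mice in late anagen was compared with dorsal skin in mid anagen, across all genes of an RNA-seq table, to find which transcripts differed between these consecutive parts of hair growth. The libraries were taken by their labels: 3 libraries of dorsal mid anagen and 3 of dorsal late anagen, which are 6 of the 43 libraries in the table of skin domains and 6 of the 48 samples in the series. Each library was made by SMART-seq2, a full-length cDNA method that starts from poly(A) RNA, from total RNA of whole microdissected skin of the dorsum. All 6 samples share the strain, and no group carries a transgene or received an agent. The labels give neither the age nor the sex of the mice, do not say which part of the back was taken, and do not say whether the 3 libraries of a group came from separate mice, so that p-values measure only the spread between libraries, which may be technical.

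In anagen the hair follicle reaches down through the dermis into the fat, and matrix cells at its base divide and differentiate into the hair shaft and the inner root sheath that guides it. Keratins fill the shaft first, keratin-associated proteins cross-link them later, and melanocytes of the bulb hand pigment to the shaft until growth ends. Whole skin also holds epidermis, dermis, fat, vessels, immune cells and the panniculus carnosus, a sheet of skeletal muscle under the fat.

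Markers of skin and of anagen follicles were present in all 6 libraries. They were not a check of mid against late anagen. The basal keratin Krt14 lay at 1978, 1981 and 1791 FPKM (fragments scaled to transcript length and library size) in mid anagen and at 2327, 2256 and 2301 FPKM in late anagen. The inner root sheath keratin Krt71 lay between 11855 and 12041 FPKM in mid anagen and between 10123 and 10438 FPKM in late anagen, and the matrix factor Msx2 lay between 80.4 and 87.9 FPKM in all 6. The depth, estimated from the steps that single fragments leave in low FPKM values, was 9724148 to 26966957 fragments in mid anagen, the deepest being replicate 3, and 13445067 to 16753585 in late anagen. Each of the 6 libraries correlated best across 14591 genes with the mean of the other libraries of its own group, at r from 0.977 to 0.983. Library by library the groups were less distinct. Mid anagen replicate 3 correlated at 0.977 with late anagen replicate 2, at 0.977 with mid anagen replicate 1 and at 0.975 with mid anagen replicate 2. Mid anagen replicate 3 stood apart: its squared differences from the other mid anagen libraries were 4.27 and 4.71 times those of sampling. The other pairs within a group gave 1.58 to 2.34. Pairs of a mid and a late anagen library gave 4.71 to 5.75 without this replicate and 6.83 to 7.78 with it. The mid anagen libraries also held far more of some predicted genes built on a short tandem repeat whose spacing is that of the mouse major satellite unit: Gm26870 lay at 2282, 2205 and 1621 FPKM in mid anagen against 32.1, 30.1 and 28.8 FPKM in late anagen. Of 13 tested genes whose transcripts matched themselves at this spacing over at least 60% of bases, 11 fell and 1 rose. Their share of the summed FPKM was 0.263 to 0.354% in mid anagen and 0.157 and 0.191% in dorsal refractory telogen. In the other dorsal groups it was 0.017 to 0.03%. The 13 include the epidermal gene Flg2, which did not pass, and Gm4553, which rose from a mean of 32.0 to 72.1 FPKM. Such a match does not by itself show that a gene holds satellite. The part of these 13 genes in the results below was not tested.

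Of 46983 genes in the table, 16486 reached 0.5 FPKM in at least 2 of the 6 libraries and were tested with limma on log2(FPKM + 1). Late anagen was higher for 339 genes (2.06% of those tested) and lower for 313 (1.9%) at a Benjamini-Hochberg adjusted p under 0.05, which is 3.95% in all. The libraries of the groups did not overlap for 3964 genes, or 24% of those tested. Among 13616 protein-coding genes 320 rose and 207 fell, and among 2870 genes of other types 19 rose and 106 fell. The median log2 change over all genes was 0.0043. Rescaling every library to the same sum (TPM) left a similar number of calls but changed the split, to 235 higher and 412 lower. The count fell to 275, 283 and 288 when late anagen replicate 1, 2 or 3 was left out, fell to 400 without mid anagen replicate 2 and rose to 1118 without mid anagen replicate 3.

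The 8 genes with the largest rise held 4 proteases of mast cells (Mcpt4, Cma1, Tpsb2 and Cpa3). The 8 with the largest fall held genes of skeletal muscle (Myh1, Sln, Myl1, Ckm, Acta1 and Apobec2). The others that rose were Serpinb6d, a serine protease inhibitor, the eosinophil chemokine Ccl11, the hair protein Krtap5-3 and the protease inhibitor Spink6. The others that fell were Xlr3b and Hoxa7. For these 16 genes the rule required that the groups did not overlap. It also left out predicted genes, clones and small RNAs. Among those left out, Gm26870 had a log2 change of -6.01, a larger fall than that of any gene named here.

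**Figure D1:**
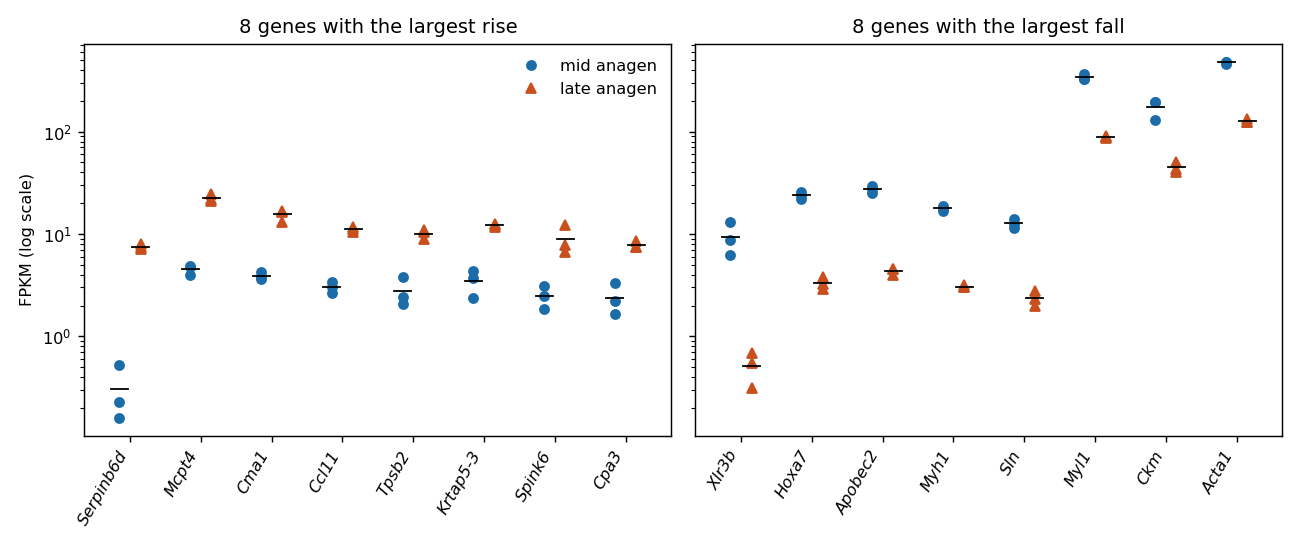
FPKM on a log axis for the 8 genes with the largest rise and the 8 with the largest fall. Predicted genes, clones and small RNAs were left out. Points are 3 libraries of dorsal mid anagen (circles) and 3 of dorsal late anagen (triangles), with the mean of each as a line. Serpinb6d lay at 0.16 to 0.52 FPKM in mid anagen and at 7.13 to 7.90 FPKM in late anagen, and Acta1 fell from 461 to 481 FPKM to between 124 and 134 FPKM.

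Skeletal muscle transcripts fell together. Of 27 tested genes of the list 21 fell and 0 rose, with a median log2 change of -1.48 beside 0.0043 over all genes. Myh1, the fast type IIx myosin heavy chain, lay at 16.8, 18.6 and 18 FPKM in mid anagen and at 3.03, 3.15 and 3.01 FPKM in late anagen, a log2 change of -2.21 ± 0.07 (SE; limma adjusted p = 3.58e-05). Every late anagen library was below every mid anagen library. The alkali light chain Myl1 lay at 323, 327 and 365 FPKM against 87.4, 88.7 and 91.3 FPKM, a log2 change of -1.91 ± 0.06 (limma adjusted p = 4.09e-05). The skeletal actin gene Acta1 lay at 461, 480 and 481 FPKM against 134, 125 and 124 FPKM, a log2 change of -1.89 ± 0.05 (limma adjusted p = 3.52e-05). The creatine kinase Ckm lay at 196, 194 and 129 FPKM against 50.3, 43 and 40.7 FPKM, and the sarcolipin gene Sln, whose product slows the calcium pump, at 12.6, 11.5 and 13.9 FPKM against 2.80, 2.29 and 1.97 FPKM. Mid anagen replicate 3 was the lowest of its group for Ckm and the highest for Myl1.

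Titin (Ttn), nebulin (Neb), the fast troponins Tnnc2, Tnnt3 and Tnni2, the calcium pump Atp2a1 and the calcium buffer Pvalb all fell, with log2 changes from -1.76 for Neb to -1.15 for Pvalb. The slow troponin Tnni1 lay at 17.4, 21.5 and 19.2 FPKM in mid anagen and at 21.3, 16.9 and 18.2 FPKM in late anagen, and these ranges overlapped (log2 change -0.04 ± 0.11). Myoglobin (Mb) had a log2 change of -0.33 ± 0.13 and the slow troponin Tnnt1 one of 0.31 ± 0.23, and neither passed. The count of 21 was the same without any 1 of the 6 libraries. Several muscle genes on other lists moved the same way: the muscle ribosomal protein Rpl3l fell from 3.58, 4.29 and 3.28 FPKM to 0.97, 0.94 and 1.55 FPKM, and the muscle forms of cytochrome oxidase subunits, Cox6a2 and Cox8b, had log2 changes of -1.66 ± 0.09 and -1.08 ± 0.15. Desmin (Des), which smooth muscle uses too, fell from 11.7, 12.9 and 10.6 FPKM to 5.62, 5.17 and 5.23 FPKM, and it was the 1 gene of 10 on the smooth muscle list to pass. Apobec2, a muscle member of the cytidine deaminase family, fell from 29.3, 27.6 and 25.3 FPKM to 4.59, 3.95 and 4.50 FPKM (log2 change -2.41 ± 0.08; limma adjusted p = 4.84e-05). In bulk skin, fewer cells of a type and less RNA per cell cannot be told apart.

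Hox genes, whose expression in skin marks position along the body axis, moved in 1 direction where they moved: of 28 tested, 11 fell and 0 rose. Hoxa7 lay at 23.8, 25.6 and 22.0 FPKM in mid anagen and at 3.23, 3.82 and 2.88 FPKM in late anagen, a log2 change of -2.53 ± 0.10 (limma adjusted p = 7.89e-05). Hoxb7 went from 18.1, 16.8 and 16.2 FPKM to 8.30, 6.79 and 5.83 FPKM, and Hoxb9 from 1.97, 2.04 and 2.57 FPKM to 0.11, 0.26 and 0.13 FPKM. Hoxa9 lay at 2.09, 1.34 and 2.90 FPKM in mid anagen and was listed at 0, 0 and 0.02 FPKM in late anagen. The others that fell were Hoxa5, Hoxa10, Hoxb6, Hoxb8, Hoxc9, Hoxc10 and Hoxd8. Hoxb2 and Hoxb3 had log2 changes of 0.31 ± 0.09 and 0.39 ± 0.13 and did not pass. Hoxc13, which hair matrix cells use to switch on keratins, lay at 62.1, 70.5 and 79.5 FPKM against 75.7, 73.7 and 72.8 FPKM, and the groups overlapped. The count of 11 dropped to 6 without any 1 late anagen library and to 7 without mid anagen replicate 2. In the other dorsal groups Hoxa7 lay at 38.9 and 39.3 FPKM in early anagen and at 3.67 and 3.42 FPKM in catagen.

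Xlr3b, an X-linked gene of a lymphoid and germ cell family, fell from 6.21, 8.73 and 12.9 FPKM to 0.31, 0.69 and 0.55 FPKM (log2 change -2.72 ± 0.24; limma adjusted p = 0.00222). In the other dorsal stages it lay at 3.81 and 3.07 FPKM (competent telogen), 3.53 and 3.14 FPKM (early anagen), 6.53 and 6.08 FPKM (catagen) and 6.85 and 6.20 FPKM (refractory telogen), all above the late anagen libraries. Serpinb6d showed another step, from 0.52, 0.16 and 0.23 FPKM in mid anagen to 7.52, 7.13 and 7.90 FPKM in late anagen (log2 change 2.72 ± 0.12; limma adjusted p = 0.000135). It lay at 0.29 and 0.42 FPKM in early anagen and at 7.41 and 5.98 FPKM in catagen, on either side of the step.

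Mast cell proteases were higher in late anagen. Of 7 tested genes of the list 4 rose and 0 fell, and the median log2 change was 1.40. The chymase Mcpt4 of connective tissue mast cells lay at 4.80, 4.88 and 4.01 FPKM in mid anagen and at 21.2, 24.8 and 21.9 FPKM in late anagen, a log2 change of 2.09 ± 0.09 (limma adjusted p = 0.000135). The chymase Cma1 lay at 3.83, 3.61 and 4.28 FPKM against 13.2, 16.9 and 16.6 FPKM (log2 change 1.75 ± 0.11). The tryptase Tpsb2 and the carboxypeptidase Cpa3 had log2 changes of 1.58 ± 0.17 and 1.40 ± 0.18. The receptor Kit, which melanocytes carry as well, lay at 5.94, 5.31 and 5.83 FPKM against 5.56, 5.50 and 5.69 FPKM and overlapped between the groups. The mast cell receptor Mrgprb2 overlapped too, at 0.88 to 1.26 FPKM in mid anagen and 1.03 to 1.19 FPKM in late anagen, and the histamine enzyme Hdc did not pass (log2 change 0.41 ± 0.14). The count of 4 held without each of the 6 libraries in turn. Ccl11, which draws eosinophils, rose from 3.06, 2.65 and 3.36 FPKM to 11.3, 10.5 and 11.6 FPKM (log2 change 1.59 ± 0.09; limma adjusted p = 0.000272).

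Genes of antigen presentation and of tissue macrophages rose in part. Of 23 tested 9 rose and 0 fell, with a median log2 change of 0.52. The class II chain H2-Aa lay at 63.5, 63.8 and 69.9 FPKM in mid anagen and at 125, 123 and 127 FPKM in late anagen, a log2 change of 0.92 ± 0.06 (limma adjusted p = 0.000397). H2-Ab1 went from 104, 108 and 96.6 FPKM to 173, 172 and 165 FPKM, and the invariant chain Cd74 from 113, 114 and 142 FPKM to 201, 203 and 213 FPKM. The myeloid calcium-binding gene Aif1 went from 2.32, 2.16 and 2.68 FPKM to 5.11, 5.98 and 5.39 FPKM. Complement genes C1qa and C1qc and lysozyme Lyz2 rose by log2 changes of 0.58 to 0.68. The scavenger receptor genes Cd68 and Cd163, which mark macrophages, had log2 changes of -0.02 ± 0.14 and 0.00 ± 0.12 and did not pass, nor did the Langerhans cell lectin Cd207 (0.17 ± 0.09). The count fell to 5 without late anagen replicate 2 and likewise without replicate 3, and to 3 when all 43 skin libraries were fitted together. Of 11 T cell genes 2 rose: Thy1, which fibroblasts and nerves also express, from 8.90, 9.03 and 9.86 FPKM to 18.6, 16.7 and 17.3 FPKM, and Trbc2 with a log2 change of 0.36 ± 0.07, a call lost in 9 of 15 alternatives. The alarmins S100a8 and S100a9, on the neutrophil list but also made by keratinocytes, went the other way: S100a8 fell from 180, 169 and 165 FPKM to 108, 105 and 105 FPKM (log2 change -0.68 ± 0.05; limma adjusted p = 0.00121), while the S100a9 call was lost in 8 of 15 alternatives.

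Dermal matrix genes shifted upward by less. Of 20 tested 11 rose and 0 fell, all 20 had a log2 change above 0, and the median was 0.39. Lum, the corneal and dermal proteoglycan lumican, lay at 24.4, 26.2 and 29.3 FPKM in mid anagen and at 52.4, 54.3 and 56.9 FPKM in late anagen, a log2 change of 1.01 ± 0.08 (limma adjusted p = 0.00121). The fibrillar collagen Col3a1 went from 193, 200 and 213 FPKM to 376, 362 and 382 FPKM (log2 change 0.88 ± 0.06). The more abundant Col1a1 moved less, from 284, 297 and 312 FPKM to 380, 424 and 375 FPKM (log2 change 0.40 ± 0.07). Decorin (Dcn), elastin (Eln), fibrillin (Fbn1) and the cross-linking enzyme Loxl1 also rose, while Lox, an enzyme of the same kind, had a log2 change of 0.06 ± 0.08. Of 16 genes of collagen folding and secretion 1 rose, Pcolce, which lost the threshold in 11 of 15 alternatives. The dermal matrix count dropped to 3 without any 1 late anagen library, to 6 and 4 without mid anagen replicates 1 and 2, and to 5 after rescaling to TPM.

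Some fat genes rose. Of 25 tested 7 rose and 0 fell, 21 had a log2 change above 0, and the median was 0.26. The adipokine Adipoq lay at 41.1, 42.4 and 44.0 FPKM in mid anagen and at 76.7, 74.5 and 76.1 FPKM in late anagen, a log2 change of 0.82 ± 0.05 (limma adjusted p = 0.000393). Thrsp, a regulator of fatty acid synthesis, went from 8.16, 6.55 and 9.54 FPKM to 21.3, 19.7 and 22.1 FPKM, and the lipid droplet gene Cidec from 12.6, 17.1 and 13.9 FPKM to 32.1, 29.0 and 29.5 FPKM. Cfd, Plin1, Gpd1 and Pck1 rose by log2 changes of 0.57 to 0.76. The fatty acid carrier Fabp4, the most abundant of the list, lay at 1282, 1361 and 1403 FPKM against 1273, 1354 and 1376 FPKM, and the lipase Lpl had a log2 change of 0.10 ± 0.06; neither passed.

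Within the follicle the late products of the shaft rose. Of 56 tested hair keratin-associated proteins 34 rose and 1 fell, and 53 had a log2 change above 0, with a median of 0.52. These small cysteine- or glycine-tyrosine-rich proteins bond the keratin filaments of the cortex and cuticle. The cuticle gene Krtap5-3 lay at 4.30, 3.75 and 2.36 FPKM in mid anagen and at 12.5, 12.3 and 11.6 FPKM in late anagen, a log2 change of 1.58 ± 0.17 (limma adjusted p = 0.00451). Krtap5-2 went from 48.6, 49.7 and 33.3 FPKM to 116, 107 and 102 FPKM, with mid anagen replicate 3 below its group. Krtap21-1 went from 470, 442 and 415 FPKM to 856, 811 and 800 FPKM (log2 change 0.89 ± 0.06). Krtap28-13 and Krtap12-1 had log2 changes of 1.00 ± 0.09 and 0.99 ± 0.12. The abundant Krtap8-1 (0.26 ± 0.17) and Krtap11-1 (0.14 ± 0.05) did not pass, and Krtap20-2 fell from 14.8, 13.1 and 13.0 FPKM to 8.49, 8.13 and 6.86 FPKM. Members of this family are close copies, and estimated fragments may be split between them in ways the values do not show. The count of 34 higher became 17, 17 and 21 without late anagen replicate 1, 2 or 3.

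Hair keratins themselves moved less. Among 9 tested type I hair keratins 2 rose, the cortex keratin Krt34 from 313, 310 and 350 FPKM to 494, 507 and 512 FPKM (log2 change 0.64 ± 0.06) and Krt33b with a log2 change of 0.36 ± 0.06, a call lost in 9 of 15 alternatives. Among 5 tested type II hair keratins 0 rose and 0 fell, with a median log2 change of 0.35. Krt81 lay at 1469, 1448 and 1091 FPKM against 1800.1, 1630 and 1622 FPKM and did not pass (log2 change 0.35 ± 0.12, limma adjusted p = 0.215). Its groups did not overlap, as was so for 24% of all genes tested. Of 14 inner root sheath genes 2 fell, Padi3 and Padi1, enzymes that turn arginine in trichohyalin into citrulline. Padi3 lay at 103, 110 and 101 FPKM in mid anagen and at 76.1, 75.7 and 76.5 FPKM in late anagen, a log2 change of -0.45 ± 0.05 (limma adjusted p = 0.00637). The desmosomal cadherin of the shaft, Dsg4, fell from 13.8, 15.3 and 13.2 FPKM to 10.8, 10.6 and 10.5 FPKM, a call lost in 9 of 15 alternatives.

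In the epidermis, late cornified envelope genes rose. Of 28 tested Lce and Sprr genes 11 rose and 2 fell. Lce1l went from 28.8, 29.5 and 32.6 FPKM to 76.2, 77.9 and 71.7 FPKM (log2 change 1.29 ± 0.07; limma adjusted p = 0.000212), and Lce1c from 66.8, 77.2 and 69.9 FPKM to 143, 133 and 123 FPKM. The genes that rose were Sprr2a2 and 10 of the Lce1 group, which cornified cells make in normal epidermis, while Lce3d and Sprr4 fell; Lce3 genes are known from wounded skin. Suprabasal Krt77 went from 195, 208 and 218 FPKM to 314, 304 and 311 FPKM, and Krt1 from 53.1, 54.1 and 50.8 FPKM to 73.4, 76.5 and 76.4 FPKM, while involucrin (Ivl; log2 change 0.05 ± 0.05) and basal Krt5 (-0.01 ± 0.07) did not pass. The Lce and Sprr rises became 5, 5 and 7 without late anagen replicate 1, 2 or 3, and the falls became 0 without any 1 of them or without mid anagen replicate 1. Of 20 interfollicular epidermis genes, some of them on the Lce list too, 7 rose and 0 fell.

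Some pigment genes fell by a small amount. Of 20 tested melanocyte genes 8 fell, 0 rose and 12 did not pass, 19 had a log2 change below 0, and the median was -0.40. Tyrosinase (Tyr), the rate-limiting enzyme of melanin synthesis, lay at 41.8, 41.1 and 45.2 FPKM in mid anagen and at 27.6, 30.4 and 30.5 FPKM in late anagen, a log2 change of -0.52 ± 0.07 (limma adjusted p = 0.00985). The melanosome matrix gene Pmel went from 230, 218 and 182 FPKM to 149, 141 and 140 FPKM, and Tyrp1 from 111, 117 and 143 FPKM to 78.4, 84.8 and 89.7 FPKM. Dct, Trpm1, Slc24a5 and Rab27a fell by log2 changes of -0.46 to -0.38. Kitl, the ligand for melanocyte Kit, which the follicle epithelium and dermal papilla make, fell from 22.3, 21.3 and 18.3 FPKM to 13.8, 13.3 and 12.2 FPKM. The melanocyte factors Mitf (-0.18 ± 0.08), Sox10 (0.07 ± 0.12) and Pax3 (-0.02 ± 0.13) did not pass. The count of 8 was among the less steady: it was 3 and 1 without mid anagen replicates 1 and 2, 1, 2 and 2 without late anagen replicates 1, 2 and 3, and 1 when all 43 skin libraries were fitted together.

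Several of the pigment genes that fell hold the E-box CATGTG just upstream of their start, the core of the site that the melanocyte factor MITF is known to bind. Of the 20 listed genes 13 matched a RefSeq start on GRCm38.p6, and 7 of them (Dct, Mc1r, Oca2, Slc24a5, Trpm1, Tyr and Tyrp1) held it in the 250 bases before a start on either strand. Counted by window, 7 of the 18 windows of these genes (38.9%) held it, as did 12.3% of all 32851 such windows. Of these, Mc1r and Oca2 did not pass the threshold. Kitl and Rab27a, which fell, had no E-box match, and Pmel, which also fell, was not among the 13 genes with a RefSeq start. The windows of 4 genes that fell are shown, 5′ to 3′ on the gene's strand and ending at the base before the start, with the E-box in capitals (CACATG is the same site on the other strand). Tyrp1, which fell and has a match, is not shown because an annotated GENCODE start lies inside its window. The others lie at chr7:87493513-87493762 on the minus strand for Tyr, chr7:64153585-64153834 on the plus strand for Trpm1, chr14:118052247-118052496 on the minus strand for Dct and chr2:125067877-125068126 on the plus strand for Slc24a5.
Tyr: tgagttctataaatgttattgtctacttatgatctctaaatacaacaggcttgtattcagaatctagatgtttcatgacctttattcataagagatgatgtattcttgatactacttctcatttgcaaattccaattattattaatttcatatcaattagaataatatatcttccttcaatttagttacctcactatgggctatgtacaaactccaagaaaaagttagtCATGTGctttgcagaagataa
Trpm1: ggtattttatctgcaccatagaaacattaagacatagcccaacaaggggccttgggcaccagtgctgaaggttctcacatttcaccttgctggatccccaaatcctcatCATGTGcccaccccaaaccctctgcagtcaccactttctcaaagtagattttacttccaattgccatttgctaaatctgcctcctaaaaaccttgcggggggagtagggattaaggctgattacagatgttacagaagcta
Dct: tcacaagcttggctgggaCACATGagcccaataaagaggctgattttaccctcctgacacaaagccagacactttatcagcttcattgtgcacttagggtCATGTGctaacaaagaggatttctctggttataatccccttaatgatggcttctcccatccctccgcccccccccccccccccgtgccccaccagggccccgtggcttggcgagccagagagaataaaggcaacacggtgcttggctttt
Slc24a5: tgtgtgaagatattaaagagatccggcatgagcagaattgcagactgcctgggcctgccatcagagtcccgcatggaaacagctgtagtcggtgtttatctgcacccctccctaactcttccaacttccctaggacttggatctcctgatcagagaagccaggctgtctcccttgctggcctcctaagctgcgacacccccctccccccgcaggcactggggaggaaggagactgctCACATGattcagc
The site begins 21 bases before the start in Tyr, 13 in Slc24a5 and 141 in Trpm1, and Dct holds it at 232 and at 150 bases. A match in a window is a description of its letters.

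For genes that signal in the hair cycle the counts were low, as the 3.95% called over all genes gives lists of this size about 0 or 1 call. No gene passed in limma in 19 of the 50 lists, among them the hedgehog pathway (12 genes), WNT ligands (13), WNT targets (17), BMP ligands (8), BMP targets (7), FGF genes (13), EGF genes (11), the Notch pathway (10), dermal papilla markers (18), hair matrix transcription factors (22) and cell cycle genes (30). The matrix mitogen Shh lay at 3.59, 4.05 and 3.34 FPKM in mid anagen and at 3.68, 2.91 and 3.41 FPKM in late anagen (log2 change -0.11 ± 0.10). The proliferation gene Mki67 lay at 6.69, 7.30 and 7.05 FPKM against 7.04, 6.87 and 7.20 FPKM, and Lef1, the partner of beta-catenin in the precortex, at 36.9, 37.0 and 45.2 FPKM against 37.7, 40.1 and 41.5 FPKM; the groups overlapped for both. Wnt10b, Axin2, Bmp4, Foxn1 and Gata3 had log2 changes between -0.14 and 0.00. Fgf5, the factor that ends anagen, lay at 5.85, 5.56 and 5.38 FPKM against 4.32, 5.54 and 4.80 FPKM (log2 change -0.17 ± 0.09).

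The next counts, apart from that of the insulin-like growth factor genes, are likewise near the 3.95% over all genes. Among secreted inhibitors, 1 of 12 BMP antagonists rose, Nbl1 from 23.4, 22.8 and 21.8 FPKM to 32.0, 31.4 and 32.4 FPKM (log2 change 0.48 ± 0.05; limma adjusted p = 0.00589). Of 14 WNT antagonists 1 fell, Sfrp4 from 10.2, 8.98 and 6.42 FPKM to 2.34, 3.73 and 4.36 FPKM, a call lost in 11 of 15 alternatives. Of 10 tested insulin-like growth factor genes 2 rose, the binding genes Igfbp5 and Igfbp3, with log2 changes of 0.55 ± 0.08 and 0.49 ± 0.07. Their calls were lost in 4 and 5 of 15 alternatives. Of 15 stem cell markers 1 rose, Cd34, which vessels and fibroblasts also express, from 28.1, 29.5 and 31.4 FPKM to 42.2, 41.1 and 41.6 FPKM, while the bulge keratin Krt15 had a log2 change of 0.02 ± 0.09. Of the genes that the study listed as putative activators, 224 were tested, 1 rose and 2 fell, and of its putative inhibitors 118 were tested, 2 rose and 0 fell. Both shares were below the 3.95% over all genes.

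**Figure D2:**
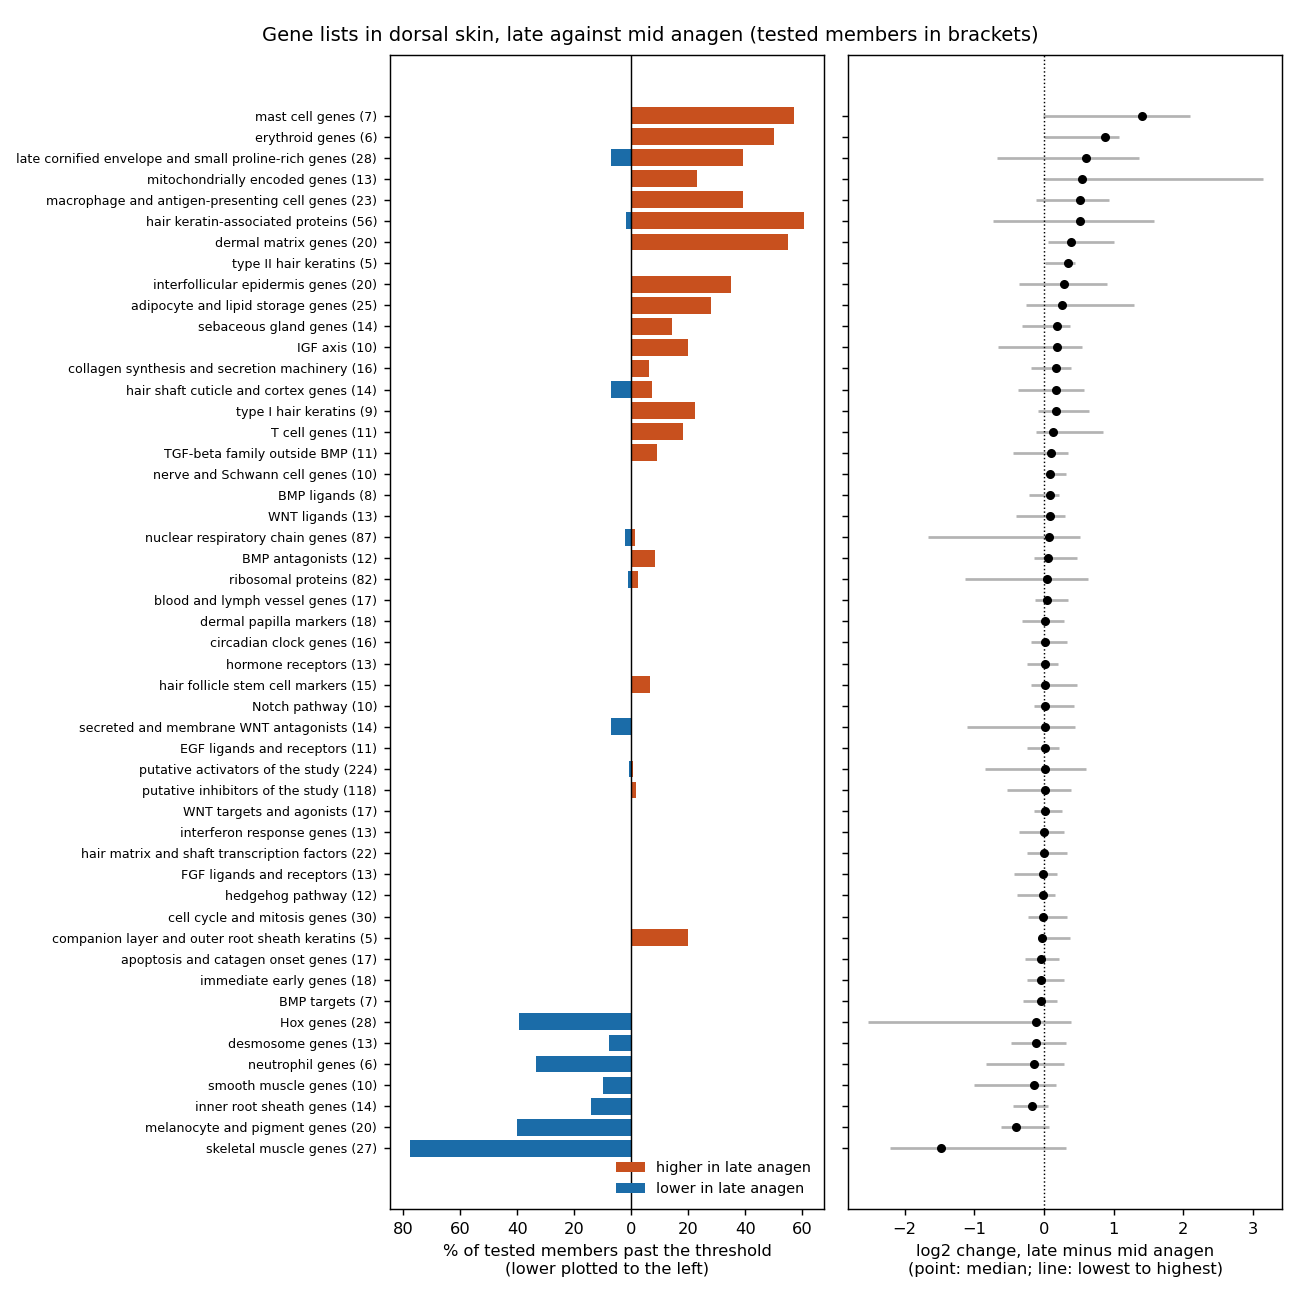
Left, the percent of each list's tested members (number in brackets) that rose, to the right, or fell, to the left, in dorsal late against mid anagen; right, the median log2 change of the tested members as a point and the lowest to the highest as a line. Skeletal muscle (21 of 27 lower) stood at the bottom and mast cell genes (4 of 7 higher) at the top, and 19 lists had no bar.

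Blood and mitochondrial transcripts moved beside these groups. Of 6 tested erythroid genes 3 rose: Hbb-bs lay at 121, 111 and 92.6 FPKM in mid anagen and at 228, 235 and 222 FPKM in late anagen, and the near-identical alpha globins Hba-a1 and Hba-a2 had log2 changes of 0.85 ± 0.14 and 0.91 ± 0.09. The Hba-a1 call was lost in 5 of 15 alternatives. Of 13 mitochondrially encoded genes 3 rose, 12 had a log2 change above 0, and the median was 0.55. The gene mt-Nd6, the one of the light strand, went from 348, 380 and 400.7 FPKM to 623, 678 and 681 FPKM (log2 change 0.81 ± 0.07). The largest log2 change of the list, 3.14, did not pass, and the mt-Nd4 call was lost in 10 of 15 alternatives. The kit does not mark strand, so reads of mt-Nd6 and of antisense RNA cannot be told apart.

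Over the whole dorsal cycle, mid and late anagen were the 2 lowest stages for skeletal muscle. The summed level of the 30 muscle genes was 2386 to 2552 FPKM in mid anagen and 751 to 785 FPKM in late anagen, against 10483 to 10699 FPKM in early anagen and 5032 to 5211 FPKM in catagen. The summed mast cell genes were lowest in mid anagen, at 19.2 to 22.8 FPKM, and reached 60.3 to 65.6 FPKM in late anagen, below the 106.5 to 114 FPKM of early anagen. The antigen-presenting cell genes summed to 451 to 463 FPKM in mid anagen, 742 to 743 FPKM in late anagen and 462 to 486 FPKM in catagen. Pigment genes summed to 1057 to 1148 FPKM in mid anagen, 812 to 841 FPKM in late anagen and 1270 to 1272 FPKM in catagen, so that the late anagen value was a dip between higher stages. The libraries labelled competent telogen held Krt34 at 965 and 947 FPKM, against 10.8 and 11.1 FPKM in early anagen, and those labelled refractory telogen at 488 and 483 FPKM, so that the telogen labels could not be matched to a low shaft keratin.

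**Figure D3:**
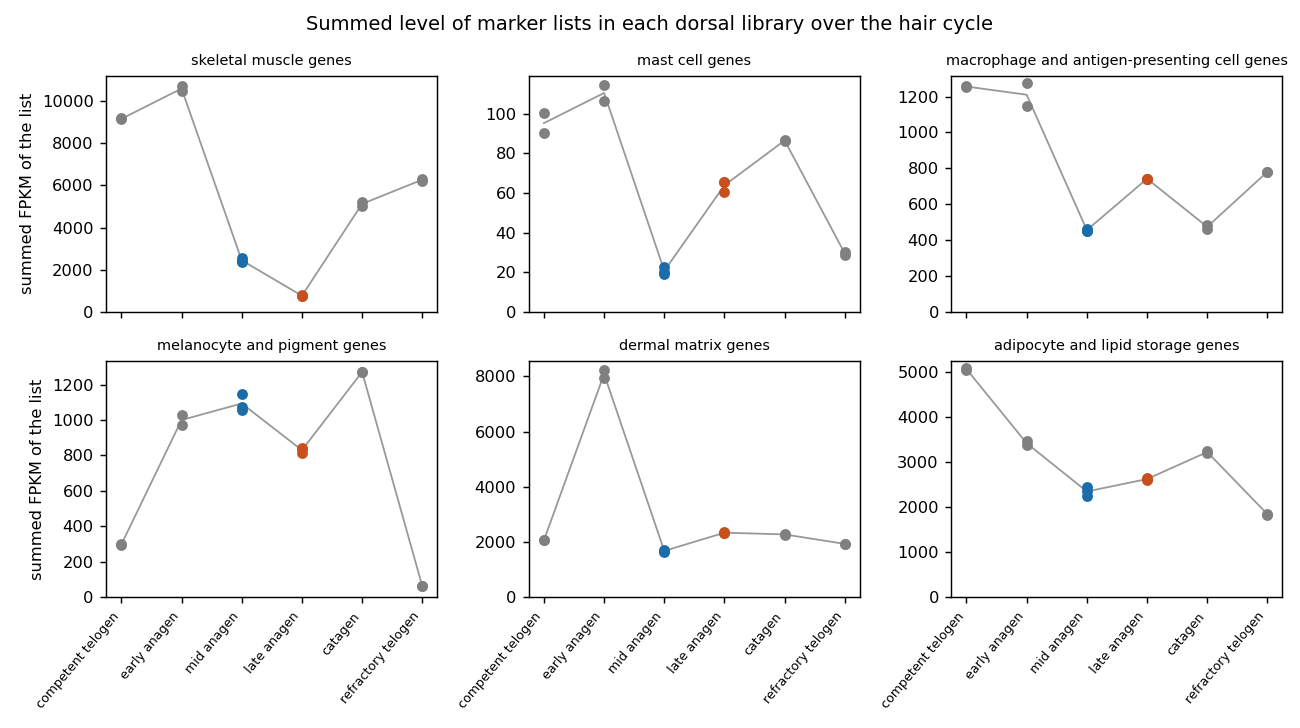
Summed FPKM of 6 marker lists in each dorsal library at the 6 stages of the cycle (points; blue mid anagen, orange late anagen; the line joins stage means). Muscle falls from 10483 to 10699 FPKM in early anagen to 751 to 785 FPKM in late anagen, and mast cell genes are lowest in mid anagen at 19.2 to 22.8 FPKM.

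The same step, from mid to late anagen, was compared with ventral skin (2 mid and 3 late anagen libraries) by an interaction term. The change differed for 3680 of 18264 genes, or 20.1%, with the dorsal change above the ventral one for 1786 (9.78%) and below it for 1894 (10.4%). The 2 ventral mid anagen libraries differed from each other, with Hoxa7 at 4.92 and 22.9 FPKM, and the count was 2683 and 2827 without the first or the second. The next counts are over members tested in the dorsal comparison. The dorsal change was above the ventral one for 5 of 7 mast cell genes and below it for 1. Mcpt4, up in dorsal skin, had a log2 change of -1.77 in ventral skin, from 30.5 and 36.3 FPKM to 9.29, 9.43 and 8.58 FPKM. The dorsal change was above the ventral one for 19 and below it for 0 of 20 dermal matrix genes, and for 18 and 2 of 25 adipocyte genes. For antigen-presenting cell genes the counts were 18 and 0 of 23, and for keratin-associated proteins 43 and 2 of 56. The dorsal change was above for 0 and below for 23 of 27 muscle genes, and above for 1 and below for 15 of 20 pigment genes. Tyr, lower in dorsal late anagen, had a ventral log2 change of 0.72, from 10.5 and 14.7 FPKM to 21.9, 21.5 and 20.02 FPKM (limma adjusted p of the difference 0.00336). For Myl1 the changes were -1.91 in dorsal and -0.39 in ventral skin (adjusted p of the difference 0.0492).

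**Figure D4:**
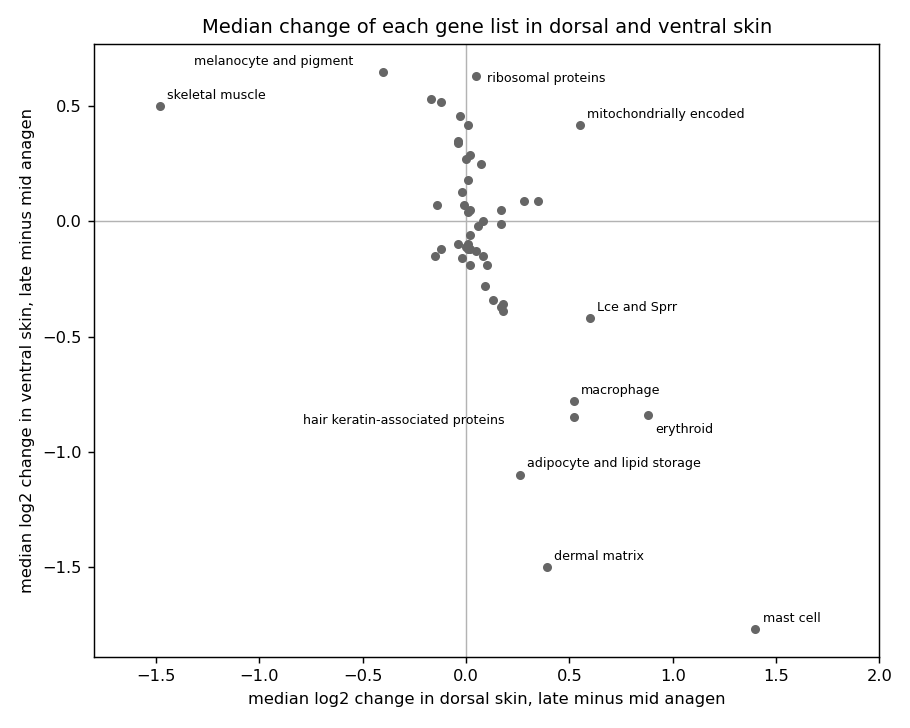
Each point is 1 of the 50 gene lists, with the median log2 change of its tested members from mid to late anagen in dorsal skin (horizontal) and ventral skin (vertical). Mast cell genes lie at 1.40 and -1.77, dermal matrix genes at 0.39 and -1.50, and pigment genes at -0.40 and 0.65.

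A comparison with chin skin (2 mid and 2 late anagen libraries) gave 2485 differing genes, 13.6% of 18264. The libraries labelled chin late anagen correlated with dorsal competent telogen at 0.983 and 0.984, above their correlation of 0.975 with each other, and held Serpinb6d at 0.36 and 0.20 FPKM, against 23.8 and 17.5 FPKM in chin mid anagen. Both chin mid anagen libraries correlated better with dorsal late anagen (0.960 and 0.957) than with each other (0.940). The correlations with a dorsal group used the mean of its libraries, and those with each other used the other library alone. Averaging removes noise between libraries, so these values are not like for like. Whether any label is at fault was not tested, and the chin comparison rests on these chin libraries throughout.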

How the data were processed

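Libraries of whole skin RNA were sequenced from both ends. With RSEM 1.2.25, mm10 and GENCODE vM8 the authors estimated gene levels, which were deposited as FPKM with 2 decimals; the authors name edgeR for their own tests and state a batch correction without naming batches. The deposited FPKM are not counts, so no count model was fitted. Samples were grouped by their labels. The comparison (its members being the libraries so labelled) and the lists were chosen with earlier results of these data known.

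Genes that reached 0.5 FPKM in 2 or more libraries were tested on the log2 scale after adding a pseudocount of 1, so that fold changes of low genes are understated. limma 3.58.1 (R 4.3.3) was fitted with empirical Bayes moderation and a variance trend, on the 6 dorsal libraries, and on the libraries of the 3 domains for the interactions; p-values were two-sided and adjusted by Benjamini-Hochberg at 0.05. On data simulated for the dorsal comparison (16486 genes), 157 of 200 genes changed by a log2 of 1 were called, with 13 false calls. Depth was estimated from transcripts of 700 to 2500 bases in genes with 1 transcript in GENCODE vM21; it covers counting error only. Lists were described by counts and medians, with 1 row per symbol.

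Named genes were the 8 with the largest change in each direction among those past the threshold, with groups not overlapping, at least 5 FPKM in the higher group and at most 3 of one symbol stem, without predicted genes, clones and small RNAs; up to 4 members a list (6 for 3 lists); 14 fixed genes; and 3 genes in each direction per interaction. Other members were named after their values were seen. Alternatives were another pseudocount, filters, scalings, no trend, all 43 skin libraries, a replicate block and each library left out. The ear libraries were not used here. Python 3.11.15, numpy 2.4.6 and pandas 2.3.3 were used.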

Additional observations from a re-analysis of the deposited data

Results flagged for a closer look

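The change from mid to late anagen differed between dorsal and ventral skin for 3680 genes and between dorsal and chin skin for 2485 genes, by an interaction term in limma. Against ventral skin the largest differences, as dorsal minus ventral log2 change, were 4.62 for Cma1, 4.54 for Tpsb2 and 4.10 for the imprinted gene Nnat on one side, and -3.48 for the 18S rRNA copy Rn18s-rs5, -3.44 for Xlr3b and -3.32 for the class I gene H2-Q7 on the other. Cma1 lay at 55.3 and 63.5 FPKM in ventral mid anagen and at 6.5, 7.54 and 7.76 FPKM in ventral late anagen, while Nnat had log2 changes of 0.75 in dorsal and -3.35 in ventral skin. H2-Q7 lay at 3.42 and 2.52 FPKM against 49.3, 44.5 and 44.0 FPKM in ventral skin, and it is a close copy of other class I genes.

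The libraries of both chin stages correlated better with the mean of a dorsal group than with each other, which are unlike measures. Against chin skin the dorsal minus chin log2 changes were 6.78 for Serpinb6d, 3.96 for Krtap19-1 and 3.79 for Krtap5-3 on one side, and -7.02 for Sln, -6.30 for Apobec2 and -5.67 for Acta1 on the other.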

How the results depend on the processing

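The dorsal count of 652 genes (339 higher, 313 lower) was 396 (189 and 207) with no filter on low values, which tests 29471 genes, and with a mean of at least 5 FPKM 194 genes were lower and 319 higher. Leaving out 1 library gave 275 to 1118 genes, with 125 to 644 higher and 147 to 474 lower. The replicate numbers did not pair the libraries (correlations of same-numbered deviations of 0.004, -0.021 and -0.041), and with the number as a replicate block the count was 330 (160 and 170). Against ventral skin, no alternative moved the counts past 1.5 times; leaving out a dorsal library gave 2834 to 3548 genes. Leaving out each ventral mid anagen library was added after the data were seen. Against chin skin the count was 1613 to 2408 on leaving out a dorsal library, lowest without late anagen replicate 3 (919 to 1451 higher, 694 to 957 lower), and scaling by the median of ratios changed the split from 1526 higher and 959 lower to 1138 and 1324. Of 87 named genes past the threshold, 40 kept it in all 15 alternatives, 5 more kept it in the 14 in which they were tested, and none of the named genes changed direction across the threshold in any of them. The cause of the movements was not tested. Depth limits genes near 0.5 FPKM most.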
